A study of Homo sapiens with 3 samples.

Results

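The genes described here are 9 classical markers of the epithelial to mesenchymal transition (EMT), and the measurement is where ETS1 was found on the DNA at and around them in SCC25, an established squamous carcinoma line of the tongue. The epithelial members are CDH1, CDH3 and EPCAM. The mesenchymal members are VIM, CDH2, FN1, TNC, SPARC and CD44. The genes were listed by name, and the choice was made with earlier results of these data known. They came from 20162 protein-coding genes of GENCODE release 44 on the nuclear chromosomes of hg19. A peak was counted for a gene if its midpoint lay in the gene body or within 100 kb of it. By this rule 58 of the 26970 consensus peaks belonged to the 9 genes.

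The series comprised 3 ChIP-Seq samples of one cell line and one state, 2 precipitated with the C20 antibody against ETS1 and 1 with the 501A antibody. No treatment, knockdown or control line stands in the labels, and the authors pooled the samples into 1 list of positions, so each gene has 1 set of peaks and no value per sample. Depth per sample cannot be read from the list, no spread between replicates exists, and no comparison below carries a test. The intervals given cover the counting of peaks only. A peak marks binding and not expression. Of 5 squamous genes (KRT5, KRT14, KRT17, TP63, SFN) only KRT17 had a peak within 500 bp of an own transcription start site (TSS), and of 5 genes of other tissues (ALB, PTPRC, CD3E, MYH6, GFAP) only GFAP did. The squamous genes had a median of 15 peaks in the window and the genes of other tissues 5, with a body peak in 3 and 1 of them. Over all protein-coding genes the window median was 4, with a TSS peak in 53.1% and a body peak in 53.4%. None of these counts measures expression. The list does not show which of the 9 markers SCC25 expresses.

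Cadherins are calcium-dependent adhesion molecules that join neighbouring cells and are tied to the actin cytoskeleton through catenins. In EMT, epithelial cells lose E-cadherin contacts and gain N-cadherin, the intermediate filament vimentin, and a matrix that favours movement. ETS1 is a transcription factor whose DNA-binding domain recognises a GGAA core. It often acts together with AP-1, the dimer of FOS and JUN proteins, whose motif was searched here as TGANTCA, where N is any base.

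ETS1 peaks were found at the start of 8 of the 9 genes, whichever side of the transition they mark, and the exception was SPARC. In the background, 53.1% of all protein-coding genes had a peak whose midpoint lay within 500 bp of an own annotated TSS. All 3 epithelial members had one, and 5 of 6 mesenchymal members did. The genes differed more in what lay beyond the TSS. CDH3, CDH1 and CD44 carried runs of peaks in their bodies, while EPCAM, CDH2, VIM, FN1 and TNC had at most 2 peaks there. CD44 also had 5 peaks upstream, whereas the 7 upstream of CDH1 lay in the body of CDH3. SPARC had 15 peaks in its window, all of them outside the gene.

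**Figure D1:**
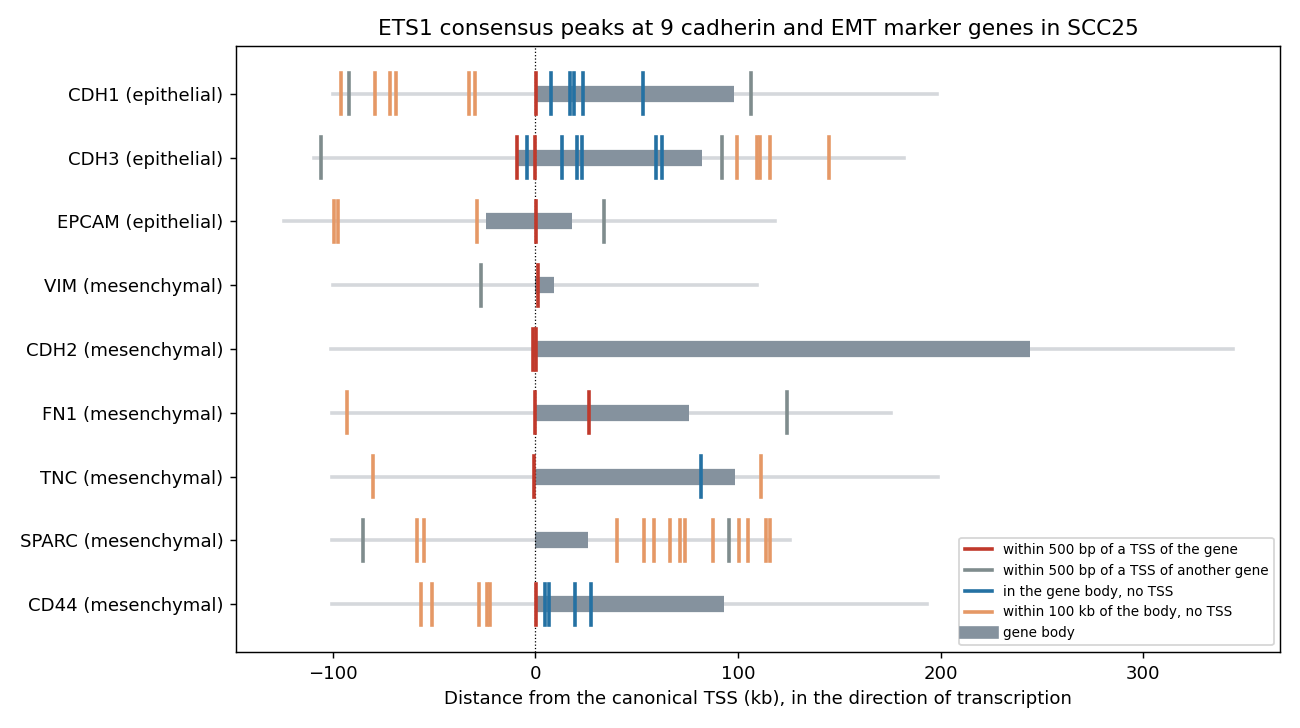
Position of each ETS1 peak (vertical ticks) relative to the canonical TSS of each gene, in kb along the direction of transcription. Thick bars are gene bodies, thin lines the 100 kb on each side, and tick colours the class of the peak. The body of SPARC holds 0 peaks and that of CDH3 holds 8.

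At the epithelial genes the peak over the canonical TSS was 1308 to 2241 bp wide, against a median of 1262 bp for all peaks at a TSS. CDH1, which encodes E-cadherin, the main adhesion molecule of epithelial junctions, spans chr16:68771195-68869440 on the plus strand. Its TSS peak, chr16:68770643-68772506, was 1864 bp wide, covered the canonical TSS and 3 of the 10 annotated starts of the gene, and had its midpoint in intron 1. CDH3, which encodes P-cadherin of basal epithelial cells, lies directly upstream at chr16:68670092-68761371, with 9823 bp between the genes. Its canonical TSS lay under a peak of 2241 bp (chr16:68678207-68680447), and a second, narrower peak of 508 bp covered the start of a transcript that begins further upstream. EPCAM, an adhesion protein of simple epithelia and carcinomas, spans chr2:47572297-47614740. Its TSS peak (chr2:47596037-47597344, 1308 bp) had its midpoint in exon 1.

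The mesenchymal genes had TSS peaks of the same order of width. The peak at VIM, the vimentin gene (chr10:17270240-17279592), was the widest of the 58 at 2928 bp, and covered 8 of its 9 annotated starts. Its midpoint lay in exon 2, 1297 bp downstream of the canonical TSS. At CDH2, which encodes N-cadherin (chr18:25512843-25757910, minus strand), a peak of 2468 bp covered the canonical TSS, with its midpoint in intron 1, and a second of 592 bp lay directly upstream, 387 bp from an own start. FN1, the fibronectin gene (chr2:216225163-216300796, minus strand), had a peak of 1038 bp with its midpoint 25 bp from the canonical TSS. Another FN1 peak of 536 bp in intron 15 counted as a TSS peak only through the start of a retained-intron transcript 466 bp away. TNC, which encodes tenascin-C, a matrix protein of remodelling tissue (chr9:117781854-117880486, minus strand), had a peak of 1239 bp whose midpoint was 403 bp upstream of the canonical TSS. The peak at CD44, the hyaluronan receptor gene (chr11:35160429-35253949), was 1671 bp wide and covered 10 of its 35 annotated starts, with a midpoint in exon 1. The peaks at VIM, FN1 and CD44 also lay within 500 bp of a start of the neighbouring noncoding genes VIM-AS1, FN1-DT and CD44-DT.

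The choice of TSS mattered for 2 genes, while a limit of 1500 bp around any own TSS again gave 8 members. With the canonical TSS alone, 6 of the 9 members had a peak within 500 bp, against 46.1% of all protein-coding genes, since the broad peaks of VIM and CDH2 cover that TSS but have midpoints 1297 and 543 bp away. The TSS peak nearest to the limit on the inner side was that of FN1 at 466 bp, and the nearest on the outer side was a TNC peak of 1074 bp in intron 20, 594 bp from an own start.

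The sequence at 7 of these TSS peaks is shown around the AGGAAG or AGGAAA nearest to each midpoint, to let the sites be read. Each is from GRCh37, the same nuclear sequence as hg19, written 5′ to 3′ on the strand that carries the match, which stands in capitals. At CD44 the peak held neither, and CCGGAA is shown in their place. Stretches that touch an annotated UTR are shorter.
CDH1, chr16:68771546-68771605, minus strand: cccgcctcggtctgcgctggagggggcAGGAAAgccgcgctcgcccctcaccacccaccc
CDH3, chr16:68678910-68678939, plus strand: agccgcaaggcaAGGAAAcatttctcttcc
VIM, chr10:17271760-17271819, minus strand: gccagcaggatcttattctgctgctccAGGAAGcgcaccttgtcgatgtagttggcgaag
CDH2, chr18:25756678-25756737, plus strand: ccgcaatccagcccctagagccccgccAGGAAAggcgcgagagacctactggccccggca
FN1, chr2:216301026-216301085, minus strand: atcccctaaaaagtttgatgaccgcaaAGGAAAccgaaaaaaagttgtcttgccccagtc
TNC, chr9:117880462-117880491, minus strand: gtcccattacagAGGAAGgagctcgctata
CD44, chr11:35161023-35161082, plus strand: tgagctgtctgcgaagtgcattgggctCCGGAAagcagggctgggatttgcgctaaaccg

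The match of CDH1 lay 1 bp from the midpoint of its peak, whereas the matches of CDH3 and TNC lay 403 and 363 bp away, outside the central 600 bp. The CDH3, TNC and CD44 peaks shown are therefore not counted below as holding AGGAAG or AGGAAA in 600 bp. The CDH3 peak also held 1 CCGGAA inside its central 600 bp, which is not shown, and the TNC peak held none there. The list gives no summit, so the distance to the point of highest signal is not known.

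With TSS peaks included, the epithelial cadherin pair carried the most peaks of the set inside gene bodies. CDH3 had 8 peaks in its body of 91.3 kb and CDH1 had 6 in 98.2 kb, of which 2 and 1 were at an own TSS. The background is that 53.4% of protein-coding genes had a peak in the body, with a median of 1 per gene. Fewer body peaks than CDH3 were found at 99.1% of protein-coding genes, and fewer than CDH1 at 98.1%. Among the 1157 genes with bodies of 75 to 100 kb, a size range chosen after the lengths of the members had been seen, the median was 1 peak, 5.36% had at least 5 and 1.12% had at least 8. In CDH1, 5 of the 6 body peaks lay in intron 2, between 7785 and 53106 bp from the canonical TSS. They were narrow, from 360 to 762 bp. In CDH3, 3 lay in intron 2, and 4 lay in parts of the annotated gene outside the canonical transcript, where the pair at chr16:68738180-68739106 and chr16:68740833-68742466 was nearer to the canonical TSS of CDH1 than to that of CDH3, but lay 8596 and 11602 bp from another annotated CDH3 start.

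Because the genes are neighbours, their windows overlapped and 13 peaks were counted for both. CDH1 had 14 peaks in its window and CDH3 had 15. The windows also took in the TSS peaks of ZFP90 upstream of CDH3 and of TANGO6 downstream of CDH1. The third epithelial gene differed from the pair. EPCAM had 5 peaks in its window and 1 in its body, near the middle of all genes, since 53.0% of protein-coding genes had fewer than 5 in the window. A pair of its peaks over 70 kb from any EPCAM start was nearest to the TSS of CALM2, and another peak lay 4795 bp upstream of the annotated body.

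Among the mesenchymal members, CD44 had the most body peaks. It had 10 peaks in its window, 5 of them in the body, and 97.1% of protein-coding genes had fewer body peaks. For all 10 the nearest canonical TSS of a protein-coding gene was that of CD44 itself. In intron 1, 4 peaks followed the TSS at 4972, 6892, 19702 and 27618 bp. Upstream, 5 peaks lay between 22514 and 56433 bp from the TSS, and 0 were downstream of the gene.

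The other mesenchymal genes held few. The body of CDH2 is the longest of the set at 245 kb, and its only peaks were the 2 at the TSS, which gave a window density of 0.449 peaks per 100 kb. That is below the median of 1.60 over all protein-coding genes, although of the 676 genes with bodies of 200 to 300 kb, 60.5% had at most 1 peak in the body, as CDH2 did. VIM had its TSS peak and 1 other, 26743 bp upstream of the canonical TSS at the start of TRDMT1. FN1 had 4 peaks, of which 1 marked the TSS of ATIC and 1 of 309 bp lay 92713 bp upstream. TNC had 4, with 1 in intron 20, 1 of 586 bp downstream of the gene and 1 of 295 bp at 80095 bp upstream.

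SPARC, which encodes a secreted glycoprotein that binds collagen (chr5:151040657-151066536, minus strand), was the member with no peak in its body of 25.9 kb and none within 500 or 1500 bp of its 8 annotated starts. Of genes with bodies of 20 to 50 kb, 40.5% had no body peak. The peak nearest to the gene was 14710 bp beyond its 3′ end. Even so, 94.5% of protein-coding genes had fewer peaks in the window than the 15 of SPARC, all of which lay in its flanks. Some lay inside the bodies of FAT2, ATOX1 or G3BP1, and others, mostly between SPARC and FAT2, in no protein-coding gene. The nearest canonical TSS was that of FAT2, a giant cadherin of squamous epithelium, for 11 of the 15 peaks, that of ATOX1 for 2, that of G3BP1 for 1 and that of SPARC for 1. The 15 peaks therefore describe the neighbourhood of SPARC, and a count by window alone would rank it with CDH1 and CDH3.

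**Figure D2:**
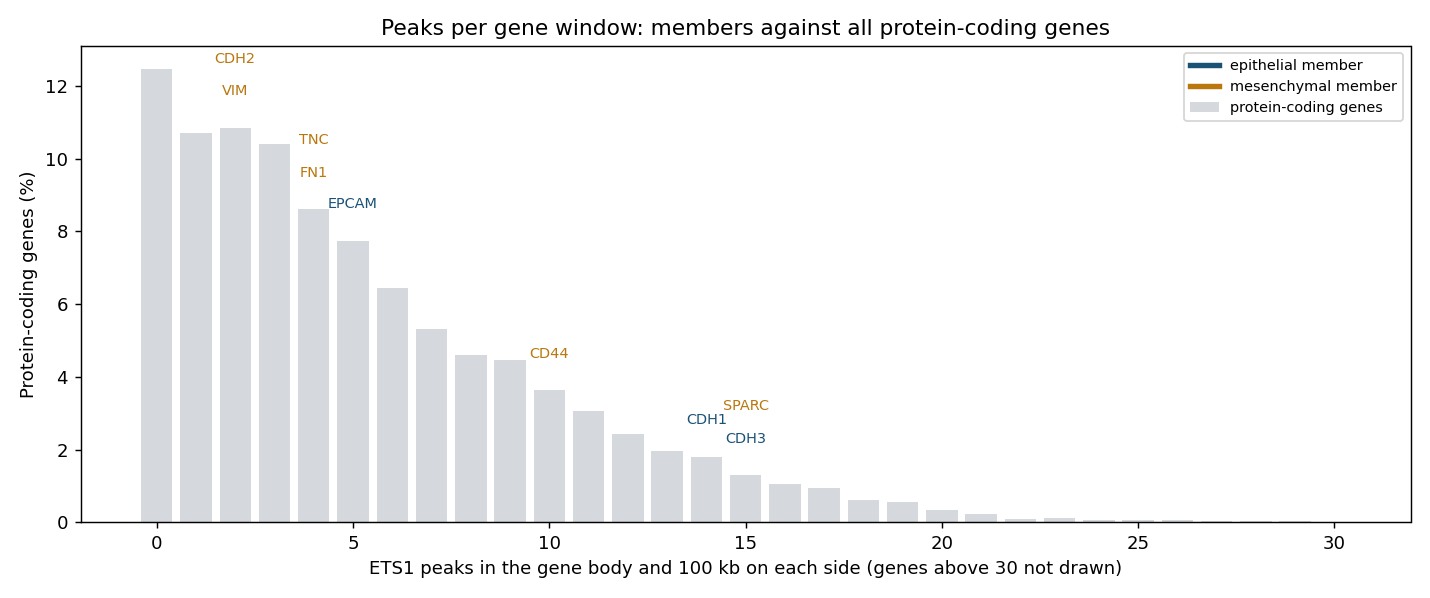
Distribution of the number of ETS1 peaks in the gene body and 100 kb on each side over protein-coding genes (bars, % of genes), with the name of each member above its own count. VIM and CDH2 stand at 2 peaks, and CDH3 and SPARC at 15.

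A peak anywhere in the window was found for all 9 members and for 87.5% of protein-coding genes, so the members are better told apart by number. The numbers ranged from 2 at VIM and CDH2 to 15 at CDH3 and SPARC, around a median of 5, against a median of 4 (quartiles 2 and 8) over all protein-coding genes.

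The epithelial windows held 21 distinct peaks in 642 kb and the mesenchymal windows 37 in 1748 kb. These are densities of 3.27 and 2.12 peaks per 100 kb, with a mesenchymal to epithelial ratio of 0.647 (95% exact binomial confidence interval 0.369 to 1.16, counting error only). In gene bodies alone the difference was wider, with 15 peaks and 6.47 per 100 kb at the epithelial members against 10 peaks and 1.82 per 100 kb at the mesenchymal members, a ratio of 0.282. The epithelial value rests on the CDH3 and CDH1 neighbours, which hold 14 of the 15 body peaks. The mesenchymal window value rests on SPARC, without which it was 1.45 per 100 kb. In the mesenchymal body value, CDH2 makes up 245 of the 548 kb with 1 of the 10 peaks. Over all protein-coding genes the median window density was 1.60 per 100 kb. The order of the groups turned around in the first 13485 lines of the list, where the densities were 1.09 and 1.26 per 100 kb and the ratio was 1.15. This too rests on SPARC, whose window held 9 of the 22 mesenchymal peaks there. Without SPARC, 13 mesenchymal peaks in 1522 kb stood against 7 epithelial peaks in 642 kb, and the order did not turn around. The genes of a list are not replicates of a state, and no difference between the groups is claimed from these values.

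**Figure D3:**
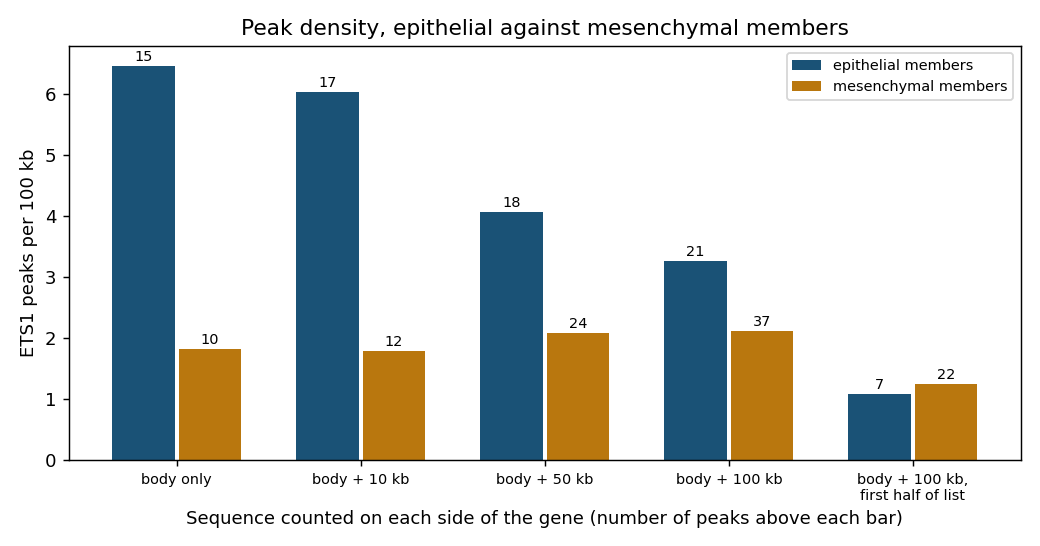
ETS1 peaks per 100 kb (bars, y axis from 0) for the 3 epithelial and 6 mesenchymal members, with the number of distinct peaks above each bar, for gene bodies with increasing flanks and for the first 13485 peaks of the list. The epithelial bars fall from 6.47 to 3.27 as flanks are added, and the mesenchymal bars are 1.82 and 2.12 in the same settings.

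The position of a peak in the deposited list follows no documented order, and is given as a description. Of the 58 member peaks, 29 were among the first 13485 peaks. The epithelial members had 7 of 21 there and the mesenchymal members 22 of 37. The first 10% of the list held 8 member peaks, 5 in the SPARC window and 3 at CD44, and none of these was at a TSS. Of all 2696 nuclear peaks in that first 10%, 1526 were at a TSS. Both CDH2 peaks came after line 13485, whereas the 4 of FN1 and both of VIM came before it.

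**Figure D4:**
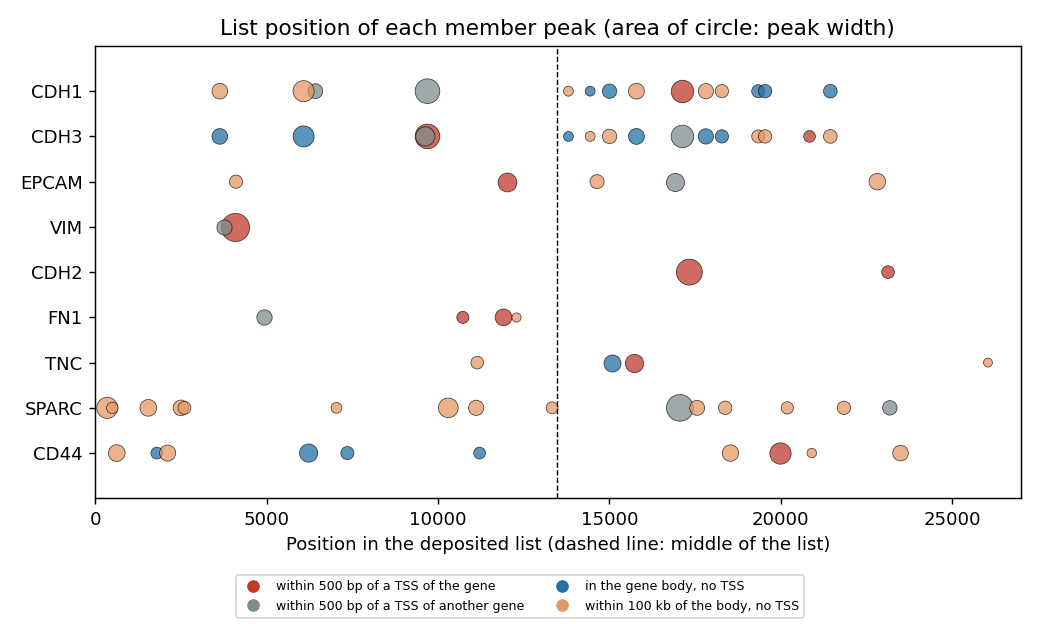
Position of each member peak in the deposited list (x axis, from the first line to the last), by gene, with circle area proportional to peak width and colour giving the class of the peak. The earliest is at position 352 in the SPARC window, and 29 of the 58 distinct peaks lie left of the dashed line. CDH1 and CDH3 share 13 peaks, which are drawn in both rows.

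The 5 earliest member peaks, chosen for display after their positions had been seen, all held AGGAAG. Over the whole peak, AGGAAG or AGGAAA was present in 90.0% of all nuclear peaks. The sequences are shown again around the match nearest to the midpoint.
SPARC window, chr5:150950598-150950657, plus strand: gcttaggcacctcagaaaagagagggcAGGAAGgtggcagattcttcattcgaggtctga
SPARC window, chr5:150952347-150952406, plus strand: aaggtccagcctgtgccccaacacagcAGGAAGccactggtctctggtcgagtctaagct
CD44 upstream, chr11:35132993-35133052, plus strand: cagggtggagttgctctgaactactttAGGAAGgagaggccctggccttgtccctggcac
SPARC window, chr5:151007901-151007960, plus strand: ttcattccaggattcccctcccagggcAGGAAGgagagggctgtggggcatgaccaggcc
CD44 intron 1, chr11:35180460-35180519, minus strand: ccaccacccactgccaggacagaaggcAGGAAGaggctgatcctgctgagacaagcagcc

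The first and second of these lie in the body of FAT2. The peak in CD44 intron 1 had 7 matches to AGGAAG or AGGAAA in its central 600 bp, the most of any member peak, and 6 of them lay inside the peak itself, which was 513 bp wide.

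Sequence content was searched on both strands in the 600 bp around each midpoint. AGGAAG or AGGAAA was present in 46 of 58 member peaks (79.3%, 95% Wilson confidence interval 67.2 to 87.7%), as in 79.2% of all 26961 nuclear peaks. In the central 200 bp it was present in 35 of 58 member peaks (60.3%, interval 47.5 to 71.9%), against 43.9% of all nuclear peaks, a value below the interval. Split by position, the 200-bp share was 5 of 11 at own TSSs against 33.8% of all peaks at a TSS, and 67.5% at no TSS (interval 52.0 to 79.9%) against 51.6%. The order of the epithelial and mesenchymal members changed with the width searched. The epithelial share was 66.7% in 200 bp, 76.2% in 600 bp and 95.2% in whole peaks, and the mesenchymal share was 56.8, 81.1 and 89.2%. All 58 windows held GGAA, which is part of both longer motifs, but so did 99.7% of all nuclear peaks. CCGGAA, which like GGAA was added later, was present in 32.8% of member peaks and 26.0% of all peaks in the 600 bp. At no TSS it was present in 13 of 40 member peaks (32.5%, interval 20.1 to 48.0%) against 15.1% of all such peaks, a value below the interval, and at own TSSs in 3 of 11 against 40.3% of all peaks at a TSS. The intervals treat peaks as independent, although many neighbour each other at the same gene, and several motifs and widths were searched. No difference from the whole list is claimed from them. A match is a run of letters and does not show that ETS1 was bound there.

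The member peaks at a TSS and those away from one differed in composition, in the same way as the whole list. The 11 peaks at an own TSS had a median GC content of 62.8% and a median CpG ratio (observed over expected) of 0.735, against 65.8% and 0.789 for all peaks at a TSS. The 40 member peaks at no TSS of any gene had 51.5% and 0.192, against 53.3% and 0.253 for all such peaks. TNC stood apart among the TSS peaks closest to a canonical start, with a GC content of 57.3% and a CpG ratio of 0.366. TGANTCA, the pattern searched for AP-1, was absent from the central 600 bp of the 11 own-TSS peaks and was present there in 1405 of all 11685 peaks at a TSS. Over the whole peak it was found in 3 of the 11, against 24.5% of all peaks at a TSS. Away from any TSS it was present in 23 of 40 member peaks (57.5%, interval 42.2 to 71.5%) and in 45.4% of all such peaks, a value inside the interval.

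AP-1 and ETS motifs stood within 50 bp of each other in 7 of the 40 member peaks at no TSS (17.5%), against 21.0% of all such peaks. The closest 3, chosen after the gaps had been computed, are printed with both motifs in capitals.
CDH3 body, chr16:68674973-68675009, minus strand: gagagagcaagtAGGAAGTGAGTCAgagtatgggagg
CD44 intron 1, chr11:35165956-35165993, minus strand: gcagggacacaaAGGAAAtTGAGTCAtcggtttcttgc
SPARC window, chr5:150995367-150995413, plus strand: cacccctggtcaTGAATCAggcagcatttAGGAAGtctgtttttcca

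In the CDH3 peak (chr16:68674764-68675625, 4019 bp upstream of the canonical TSS of CDH3) the 2 motifs adjoined with 0 bp between them, and in the CD44 peak 1 bp lay between them. The SPARC pair, in which the AP-1 match reads TGAATCA and not TGAGTCA, had a gap of 10 bp and lay near the end of its peak, 420 bp from the midpoint.

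Other genes of the same programme were counted in the same way, each list beside the 53.1% of protein-coding genes with a TSS peak and the median of 4 peaks in the window. Of 10 further epithelial genes, 7 had a peak within 500 bp of an own TSS, and the median number in the window was 7.5. MUC1, a cell surface mucin, and RAB25, a small GTPase of epithelial trafficking, had 17 each, and CLDN7, a tight junction claudin, had 16. Of these, only 0, 1 and 1 lay in the gene bodies. Of 10 further mesenchymal genes, 9 had a TSS peak, with a median of 3 peaks in the window. S100A4 had 20 and ITGA5, the fibronectin receptor subunit, had 13, of which 2 and 3 lay in the gene bodies. POSTN, which encodes the matrix protein periostin, had 0 and was the only gene of that list with no TSS peak.

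Of the 5 catenin genes, whose products anchor cadherins, 4 had a TSS peak, with a median of 8 in the window. JUP (plakoglobin) had 12, CTNND1 (p120 catenin) had 10 and CTNNA1 had 8, of which 3, 4 and 5 lay in the gene bodies. CTNND2, named after its value was seen, had 1 peak in its window and none at a TSS. Of 5 other cadherin genes only CDH4 had a TSS peak. CDH4 and CDH13, which encodes the membrane-anchored, atypical T-cadherin, each had 12 peaks in their windows, 10 of them in bodies of 688 and 1174 kb. CDH5 of endothelial junctions had 8, 1 of them in its body, and CDH6 had 0.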

How the data were processed

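ETS1 ChIP-Seq was performed by the authors in 3 samples of SCC25 cells. Reads were mapped to hg19 with Bowtie 1.1.1, keeping those with a single locus, pooled with SAMtools 1.3 and, pooled and by sample, called with MACS2 against a merged input. IDR (irreproducible discovery rate) over the samples gave the deposited list. The deposited file holds chromosome, start and end of each peak and no signal, score or sample, and reads per sample are not analysed here. Genes came from GENCODE 44 mapped to GRCh37, with 1 canonical TSS per gene and all annotated starts. No nuclear peak ended past a chromosome end (0 of 26961). The 9 mitochondrial peaks were left out. Peaks were assigned by midpoint, with a TSS limit of 500 bp, and motifs were counted in 600 bp. All 9 members are named, as are genes whose TSS lay within 500 bp of a member peak, and up to 3 genes with most peaks and those with none from each list. CALM2, ATOX1, KRT17, GFAP and CTNND2 were named after their values were seen. A few items that this rule would name or print are not reported here. The members and lists were chosen with earlier results of these data known. Counting was tested on simulated data. Python 3.11.15, numpy 2.4.6, scipy 1.17.1 and matplotlib 3.10.9 were used. Positions are 1-based.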

Additional observations from a re-analysis of the deposited data

How the results depend on the processing

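No test, spread between samples or setting without a sample could be computed from a pooled list, and no paired analysis was possible because the columns carry no sample. Counting any overlap in place of midpoints left the 58 peaks and the ratio of 0.647 as they were. The number of distinct member peaks was 29 with flanks of 10 kb, 25 in gene bodies only, 29 in the first 13485 of the list and 36 where the nearest canonical TSS had to be a member's. A TSS peak was found at 4 members in the first 13485. The mesenchymal to epithelial ratio of density was 0.298 with flanks of 10 kb and 0.282 in gene bodies. It turned around to 1.15 in the first 13485, where 9 of the 22 mesenchymal peaks lay in the SPARC window. Leaving out 1 member at a time gave ratios from 0.442 without SPARC to 0.821 without CDH2, and except for CDH2 and CD44 these were added after the data had been seen. The share of member peaks with AGGAAG or AGGAAA was 60.3% in 200 bp and 91.4% in whole peaks, and with motifs added later it was 100% for GGAA and 32.8% for CCGGAA. Of the 9 counts for single members, 8 moved by over 1.5 times with flanks of 10 kb, 9 in gene bodies and 7 in the first 13485.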
